A study of Mus musculus with 48 samples.

Results

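The cytochrome P450 genes of families 1 to 3 were described in mouse liver over 48 arrays, 1 for each mouse. Members were all genes with a symbol of the Cyp1, Cyp2 or Cyp3 families, other than pseudogenes with -ps in the symbol, among probe sets annotated with a single symbol. This gave 57 of the 22180 annotated genes, 3 in family 1, 47 in family 2 and 7 in family 3. One of them, Cyp2d13, is listed as a transcribed pseudogene in RefSeq. Of the 57, 48 passed the filter on dim genes, which kept genes averaging over 1.17 on the log2 scale (30th percentile of probe sets), out of 16926 genes that did. The 9 members below it were Cyp2b19, Cyp2c65, Cyp2c66, Cyp2d11, Cyp2d12, Cyp2j11, Cyp2t4, Cyp2w1 and Cyp3a57, and they enter no test.

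The mice were fed freely from 3 weeks of age on diets that differed in protein, carbohydrate and fat, written here as shares in that order, and in energy level, and their livers were taken at 15 months. The design text names males and females, but the labels give no strain and no sex for a mouse. High energy diets were 5/20/75 (2 mice), 5/48/48 (4), 5/75/20 (4), 14/29/57 (4), 14/57/29 (2), 23/38/38 (3), 23/65/12 (2), 33/20/47 (2), 33/47/20 (2), 42/29/29 (1) and 60/20/20 (3). Medium energy diets were 14/29/57 (1), 14/57/29 (2), 23/38/38 (3), 33/20/47 (3), 33/47/20 (2) and 42/29/29 (3), and low energy diets 23/38/38 (1), 42/29/29 (1) and 60/20/20 (3). By protein share this makes 10 mice at 5%, 9 at 14%, 9 at 23%, 9 at 33%, 5 at 42% and 6 at 60%, and every mouse at 5% was on a high energy diet.

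Cytochromes P450 are haem enzymes of the endoplasmic reticulum that oxidise lipophilic molecules with electrons from the reductase Por. Families 1 to 3 handle drugs, plant compounds and pollutants, and in part steroids, bile acids and fatty acids. Their genes are targets of the receptors Ahr, Nr1i3 (CAR) and Nr1i2 (PXR), and in mouse liver several have female-biased or male-biased levels that follow the pattern of growth hormone release through Stat5b.

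Because of that sex bias, each array was described by its sex-linked genes. The mean of the 3 measured Y-linked genes (Eif2s3y, Kdm5d, Uty) lay above Xist in 24 arrays, called Y-high here, and below it in 24, called Xist-high. Y-linked means were 4.07 to 5.86 in the Y-high arrays and 0.99 to 1.44 in the others, so no array was between. These sets come from the arrays and are not groups of the labels. At 5% protein 6 arrays were Y-high and 4 Xist-high.

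Sequences upstream of Cyp2b9 and Cyp2b13, and of Cyp2a4 and Cyp2a5, are shown first, because each pair is made of near copies. Cyp2b9, Cyp2b13 and Cyp2a4 were also among the members with the widest spread between mice fed alike. In the order of members on chromosome 7 Cyp2b13 and Cyp2b9 are neighbours, while Cyp2a4 and Cyp2a5 are not. RefSeq orders 15 of the 57 members along chromosome 7, among them Cyp2b10, Cyp2b13, Cyp2b9, Cyp2a4, Cyp2a5, Cyp2a22 and Cyp2f2, 14 on chromosome 19 (Cyp2c), 9 on chromosome 15 (Cyp2d), 8 on chromosome 5 (7 of them Cyp3a) and 7 on chromosome 4 (Cyp2j). Positions here are those of RefSeq on GRCm38.p6, and the sources used here name no build for the array. For Cyp2b9 and Cyp2b13 the 140 bases from -250 to -111 before the transcript start differ at 2 positions (98.6% identity), marked in capitals below. The windows are chr7:26173159-26173298 and chr7:26061245-26061384, plus strand.
Cyp2b9: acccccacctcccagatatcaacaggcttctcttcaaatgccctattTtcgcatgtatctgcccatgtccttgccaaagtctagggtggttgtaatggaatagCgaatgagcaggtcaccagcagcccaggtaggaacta
Cyp2b13: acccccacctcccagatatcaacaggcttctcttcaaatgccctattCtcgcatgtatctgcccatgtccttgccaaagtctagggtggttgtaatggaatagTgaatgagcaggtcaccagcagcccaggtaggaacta
The changes are T48C and C104T, counted from the first printed base of Cyp2b9. The bases between this stretch and the start were not compared for this pair. Its identity is thus over a shorter window than that of the next pair. Cyp2a4 and Cyp2a5 are another close pair. Their 250 bases before the start (chr7:26306942-26307191 and chr7:26835089-26835338, plus strand) differ at 4 of 249 aligned bases (98.4% identity), in capitals.
Cyp2a4: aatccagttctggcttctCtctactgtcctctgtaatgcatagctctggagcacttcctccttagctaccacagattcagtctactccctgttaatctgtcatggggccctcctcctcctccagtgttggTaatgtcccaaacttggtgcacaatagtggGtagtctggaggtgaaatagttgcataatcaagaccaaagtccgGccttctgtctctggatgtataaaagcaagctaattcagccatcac
Cyp2a5: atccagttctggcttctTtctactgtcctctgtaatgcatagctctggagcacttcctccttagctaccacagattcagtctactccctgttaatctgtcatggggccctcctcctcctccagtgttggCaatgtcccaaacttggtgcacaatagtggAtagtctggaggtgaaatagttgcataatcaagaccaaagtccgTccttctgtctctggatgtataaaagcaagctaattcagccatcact
The changes from Cyp2a4 to Cyp2a5 are C19T, T131C, G161A and G205T, counted from the first printed base of Cyp2a4. The Stat5 core TTCNNNGAA, searched on both strands, is absent from the 250-base windows of Cyp2b9, Cyp2b13, Cyp2a4, Cyp2a5, Cyp2a22, Cyp2c38, Cyp2c69, Cyp2d9, Cyp3a16 and Cyp3a44, and 7.02% of all 32841 RefSeq windows of that length hold it. The Ahr core GCGTG is in the windows of Cyp1a1 and Cyp1b1 and not of Cyp1a2, against 28.2% of all windows. Of the 49 members with a window 8 (16.3%) hold GCGTG and 2 (4.08%) hold TTCNNNGAA, both below the shares over all windows. A match is a description of letters, not of binding. Probe sets of such near copies may also take up each other's transcript, so the split between Cyp2b9 and Cyp2b13, Cyp2a4 and Cyp2a5, and Cyp3a16 and Cyp3a44 is uncertain.

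A group of 4 members changed with the protein share of the diet. Cyp2j6, of a subfamily known for fatty acid epoxygenation, Cyp2f2, an enzyme of naphthalene bioactivation that in liver is found around the portal vein, and Cyp2c70, which makes muricholic acids from chenodeoxycholic acid, rose with protein, while Cyp3a11, the main PXR target and the mouse counterpart of human CYP3A4, fell. The slope is the change in log2 level for each 10 points of protein that replace carbohydrate and fat equally, fitted with limma over all 48 mice beside the carbohydrate-for-fat exchange and energy level, with Benjamini-Hochberg adjustment over the 16926 genes. The 4 of 48 members compare with 7.01% of all tested genes, 3.37% rising and 3.65% falling.

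Cyp2j6 ran at 5% protein from 5.75 to 7.05 with a median of 6.26, at 33% from 6.96 to 7.63 with a median of 7.30, and at 60% from 6.68 to 7.83 with a median of 7.32. The 10 mice at 5% and the 9 at 33% overlapped only between 6.96 and 7.05. Its slope was 0.22 ± 0.046 (SE, adjusted p = 0.00304), which extended from 5% to 60% protein is a 2.33-fold rise. Cyp2f2 ran from 8.97 to 11.86 (median 9.98) at 5% and from 11.10 to 12.16 (median 11.55) at 60%. Means at 14% to 42% were 11.16 to 11.38, and only 3 of the 10 mice at 5% (11.15, 11.29 and 11.86) reached the values seen at 23% and above. Its slope was 0.26 ± 0.067 (adjusted p = 0.0147).

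Cyp2c70 had means of 10.58 ± 0.43 (SD, n = 10) at 5%, 11.01 ± 0.53 (n = 9) at 14%, 11.36 ± 0.22 (n = 9) at 33%, 11.61 ± 0.16 (n = 5) at 42% and 11.27 ± 0.31 (n = 6) at 60%. The highest mean was thus at 42%, and all 5 mice there (11.36 to 11.73) lay above all 10 at 5% (9.82 to 11.08). Of these 5 mice 4 were Xist-high, as were 4 of the 10 at 5% and 2 of the 6 at 60%. The Cyp2c70 median was 11.35 in Xist-high and 11.04 in Y-high arrays. The part of the array sets in the mean at 42% was not tested. The slope was 0.14 ± 0.037 (adjusted p = 0.0227). Cyp3a11 fell from 9.996 ± 0.26 (n = 10) at 5% to 9.40 ± 0.58 (n = 6) at 60%, its slope being -0.14 ± 0.046 (adjusted p = 0.0475). Its groups overlapped, from 9.42 to 10.21 at 5% and from 8.81 to 10.38 at 60%, and 27 of the 48 fits without a single mouse lost the call (adjusted p 0.0138 to 0.0882). Cyp2j6, Cyp2f2 and Cyp2c70 passed in all 48.

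**Figure D1:**
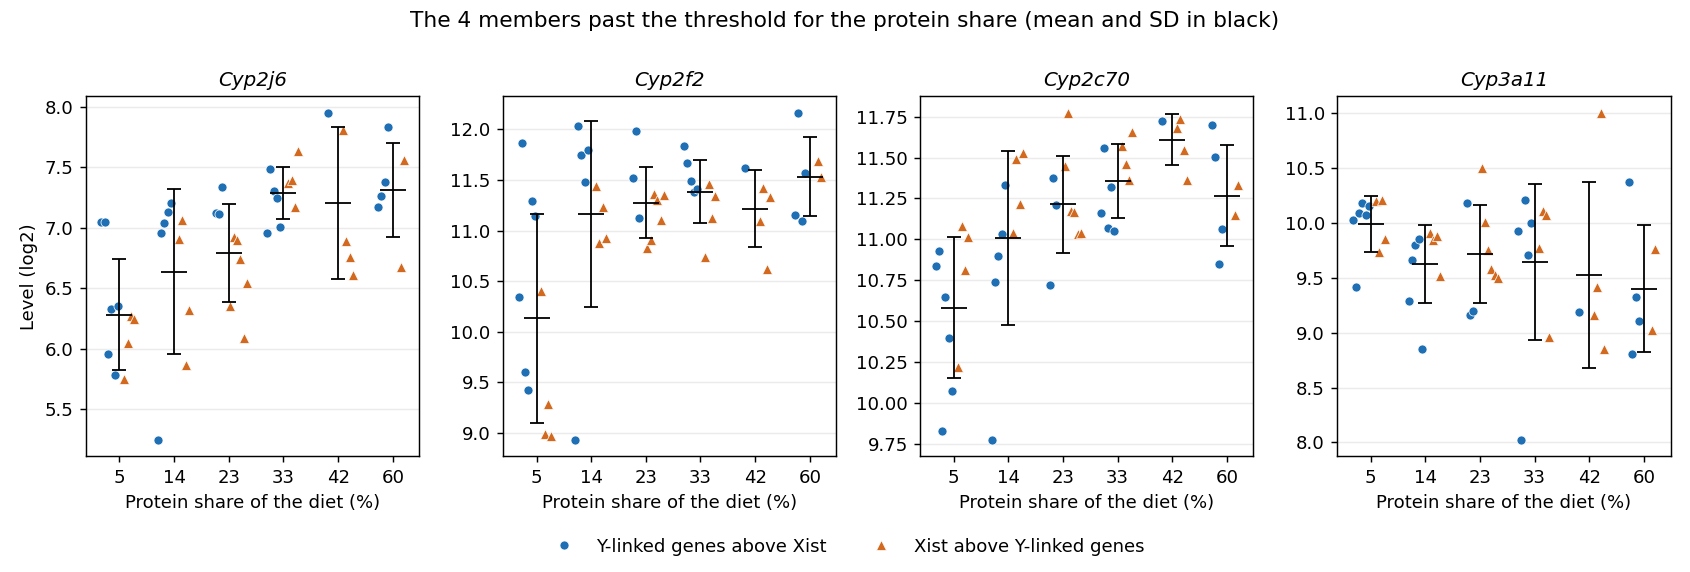
Level (log2) of Cyp2j6, Cyp2f2, Cyp2c70 and Cyp3a11 against the protein share of the diet (%), 1 point for each mouse, circles for Y-high and triangles for Xist-high arrays, with the mean and SD of all mice at that share in black. Cyp2j6 and Cyp2c70 rise over several shares, Cyp2f2 is low in 7 mice at 5% and in 1 at 14%, and Cyp3a11 spreads widely from 33% protein on.

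The width of the deposited values moved with the same diet: the interquartile range of an array was 3.48 ± 0.13 (SD, n = 10) at 5% protein and 3.21 ± 0.21 (n = 38) above it. With that range as a term in the model the slopes were 0.14 for Cyp2j6 (adjusted p = 0.114), 0.21 for Cyp2f2 (0.199), 0.11 for Cyp2c70 (0.237) and -0.15 for Cyp3a11 (0.213). Thus 0 of 48 members passed in limma, against 0.668% of all tested genes. An unadjusted p under 0.05 was found for 8 of 48 members and for 1762 of the 16926 tested genes. The part of the array's range in the result was not tested further.

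Among the other members, Cyp2c38, higher in Xist-high arrays, had a slope of -0.33 ± 0.11 (adjusted p = 0.0523) just outside the threshold, and it passed in 12 of the 48 fits without 1 mouse. The members with the widest spread could not be placed: the slope of Cyp2b13 was -0.41 with a 95% interval from -1.06 to 0.24, that of Cyp3a16 -0.23 from -0.90 to 0.45. Some of the abundant members had narrow intervals that held 0. Others, such as Cyp2b9 (mean 8.73) and Cyp2a4 (mean 8.53), had wide ones, and the abundant Cyp2c70 and Cyp2f2 passed. Cyp2a12, which hydroxylates steroids and bile acids, had a slope of 0.0027 (-0.043 to 0.048) and Cyp2d26 one of 0.0092 (-0.051 to 0.069). Cyp2e1, the ethanol and acetone oxidase and the member with the highest mean (12.57), had a slope of 0.051 (-0.038 to 0.14). The 6 tested Cyp2j genes all had slopes above 0, but only Cyp2j6 passed. Over the 48 members 30 slopes were positive, with a median of 0.024, beside -0.0019 over all tested genes.

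**Figure D2:**
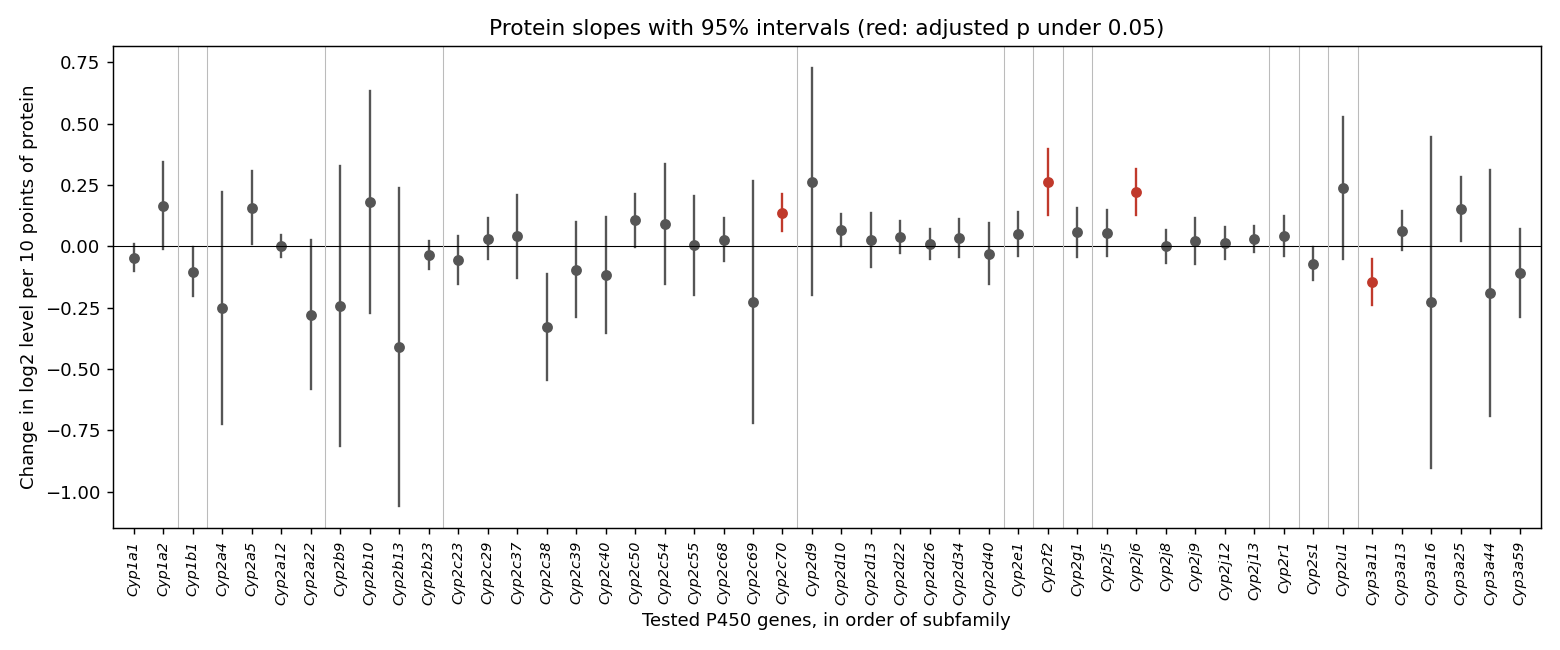
Change in log2 level per 10 points of protein (y axis) for the 48 tested P450 genes in order of subfamily, points with 95% intervals, red where the adjusted p is under 0.05. The 4 red genes are Cyp2c70, Cyp2f2, Cyp2j6 and Cyp3a11, and the widest intervals belong to Cyp2b13, Cyp3a16, Cyp2b9, Cyp2c69, Cyp3a44, Cyp2a4, Cyp2d9 and Cyp2b10.

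The genes that regulate or serve these enzymes gave few calls in the same test. Of 19 tested regulators and partners 2 fell with protein, the receptor gene Ahr (slope -0.19 ± 0.044, adjusted p = 0.0071) and Alas1, the first enzyme of haem synthesis (-0.17 ± 0.049, adjusted p = 0.0267). Both Cyp1a genes, the best-known targets of that receptor, stayed outside the threshold, Cyp1a1 at -0.045 (adjusted p = 0.269) and Cyp1a2 at 0.17 (adjusted p = 0.218). Of 15 tested targets of AhR, CAR and PXR outside the P450 genes Gadd45b alone passed (-0.29, adjusted p = 0.0169). Of 8 genes of portal hepatocytes 3 rose (Etnppl 0.45, Hal 0.23, Sult5a1 0.29), as did 1 of 10 genes of central hepatocytes (Oat 0.34). Of the 8 stellate cell markers Col1a1 (-0.32) and Col1a2 (-0.17) fell and 6 had an unadjusted p under 0.05, and 1 of 7 hepatocyte markers rose (Apoc3, 0.071). Of the 32 tested markers of endothelial cells, macrophages, lymphocytes, bile duct, lung, intestine and muscle 0 passed in limma, and 8 had an unadjusted p under 0.05. Over all 16926 tested genes 4510 had an unadjusted p under 0.05 for the protein share. In whole liver, fewer cells of a type and less RNA in each cannot be told apart.

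Exchanging carbohydrate for fat changed no member: 0 of 48 passed limma's adjusted threshold, as did 0% of all genes, and 0 members had an unadjusted p under 0.05, against 3.93% of all genes. Slopes for 10 points moved from fat to carbohydrate ran from -0.11 to 0.25. High against medium energy also gave 0 of 48 members, beside 0% of all genes. At an unadjusted p under 0.05 there were 7 members against 8.13% of all genes, namely Cyp2d13, Cyp2j5, Cyp2e1, Cyp2d10, Cyp1a2 and Cyp2c37 with higher values at high energy and Cyp2c55 with lower ones. The largest of these, for Cyp2c55, was -0.93 ± 0.35 (adjusted p = 0.497). Without the single medium energy 14/29/57 mouse, described further on, 5 members had an unadjusted p under 0.05, against 5.23% of all genes: Cyp2c55 (-1.07), Cyp2c70 (-0.25), Cyp2d13 (0.40), Cyp2e1 (0.11) and Cyp2j5 (0.14). With that mouse the difference was 0.37 for Cyp2e1 and 0.40 for Cyp2j5. That of Cyp1a2 went from 0.68 to 0.20 and that of Cyp2d10 from 0.26 to 0.12 without it.

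Low against high energy at 60/20/20, with 3 mice each, gave 0 of 48 members and 0% of all genes, and 2 members had an unadjusted p under 0.05, against 10.1% of all genes. The transcribed pseudogene Cyp2d13 was at 7.84, 8.04 and 8.06 in low energy mice and at 8.38, 9.48 and 9.63 in high energy mice, which do not overlap (difference -1.18 ± 0.36, adjusted p = 0.361). Sets of 3 mice can separate without an effect, and no share of genes so separated is given here. The separation is therefore not read as a result. Cyp2c55, an enzyme of hydroxyeicosatetraenoic acid formation, was at 4.58, 5.68 and 6.81 against 3.02, 3.30 and 4.97, which overlap (1.93 ± 0.88, adjusted p = 0.467).

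When the 20 combinations of energy and composition were compared at once, 10 of 48 members differed, against 13.3% of all genes: Cyp2e1, Cyp1a2, Cyp2j5, Cyp2c23, Cyp2d26, Cyp2c70, Cyp2d10, Cyp2d13, Cyp2f2 and Cyp2j6. Without the single medium energy 14/29/57 mouse the count was 1, Cyp2c70 (adjusted p = 0.0242), against 0.904% of all genes. That mouse had the lowest value of all 48 for 21 of 48 members and the highest for 0, while 11.6% of all tested genes were lowest there and 15.7% highest.

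For some members its level lay far below the range of the other 47 mice, for 5 of the 21 (Cyp2f2, Cyp2c70, Cyp2c69, Cyp2c68 and Cyp1a1) it lay below by less than 0.1, and for the 27 others it lay within the range. Cyp1a2, the caffeine demethylase of central hepatocytes, was at 3.77 against 9.14 to 10.80, which is 86.9-fold below the median. Cyp2e1 was at 9.30 against 12.34 to 12.87, and Cyp2j5, an arachidonic acid epoxygenase, at 7.79 against 10.46 to 11.51. Cyp2c23 (7.77 against 9.10 to 10.97), Cyp2d26 (9.22 against 10.51 to 11.37) and Cyp2d10 (7.18 against 8.65 to 9.47) were lower too, whereas Cyp3a11 at 9.30 lay within 8.02 to 11.01.

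In the same mouse all 7 macrophage markers were the highest of the 48, with a mean of 10.32 against 5.04 to 8.02, among them Cd68 at 11.30 against at most 7.27. The 10 genes of central hepatocytes averaged 5.07 against 6.80 to 8.51, the 7 hepatocyte markers 10.65 against 10.997 to 11.27, and the lymphocyte markers 4.54 against 2.46 to 4.56. Alb was at 12.88, within 12.63 to 13.06, and the PXR gene Nr1i2 at 6.48 against 7.46 to 8.77. The part of these cell markers in the P450 levels was not tested. For the protein share the same mouse mattered little: without it 5 members passed, the 4 named and Cyp2c38 (-0.35, adjusted p = 0.0393).

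**Figure D3:**
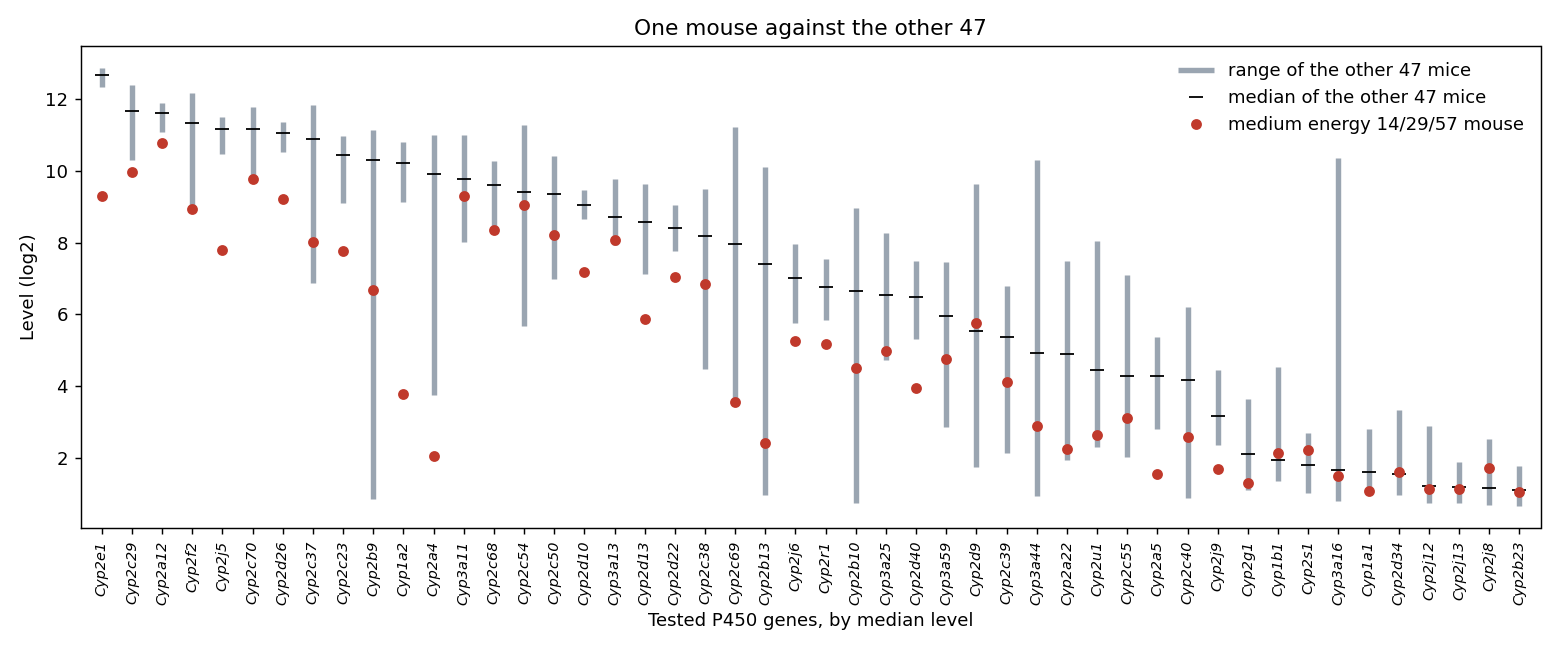
Level (log2) of the 48 tested P450 genes, ordered by median: grey bars span the other 47 mice, black ticks are their median, and red points are the medium energy 14/29/57 mouse. The red point lies below the bar for 21 genes, farthest for Cyp1a2 (3.77 against at least 9.14), Cyp2e1 and Cyp2j5.

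Mice fed alike differed widely in part of the members. The standard deviation (SD) within the 20 combinations was 3.55 for Cyp3a16, 3.51 for Cyp2b13, 2.90 for Cyp2b9, 2.78 for Cyp2b10, 2.63 for Cyp2c69, 2.57 for Cyp2d9, 2.51 for Cyp3a44 and 2.21 for Cyp2a4, in log2 units, beside a median of 0.31 over all tested genes. Of 48 members 14 were among the top 0.998% of tested genes by this SD. At the other end Cyp2e1 had an SD of 0.093, Cyp2d26 of 0.18, Cyp2j5 of 0.19 and Cyp2a12 of 0.20. A mouse alone on its combination adds nothing to this SD. The medium energy mouse with low P450 levels described above is therefore not in it. Over all mice the SD was 0.495 for Cyp2e1, 0.312 for Cyp2d26, 0.520 for Cyp2j5 and 0.221 for Cyp2a12. Among mice fed alike the members thus held both extremes, the Cyp2e1 SD there being larger than that of only 0.0709% of tested genes.

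**Figure D4:**
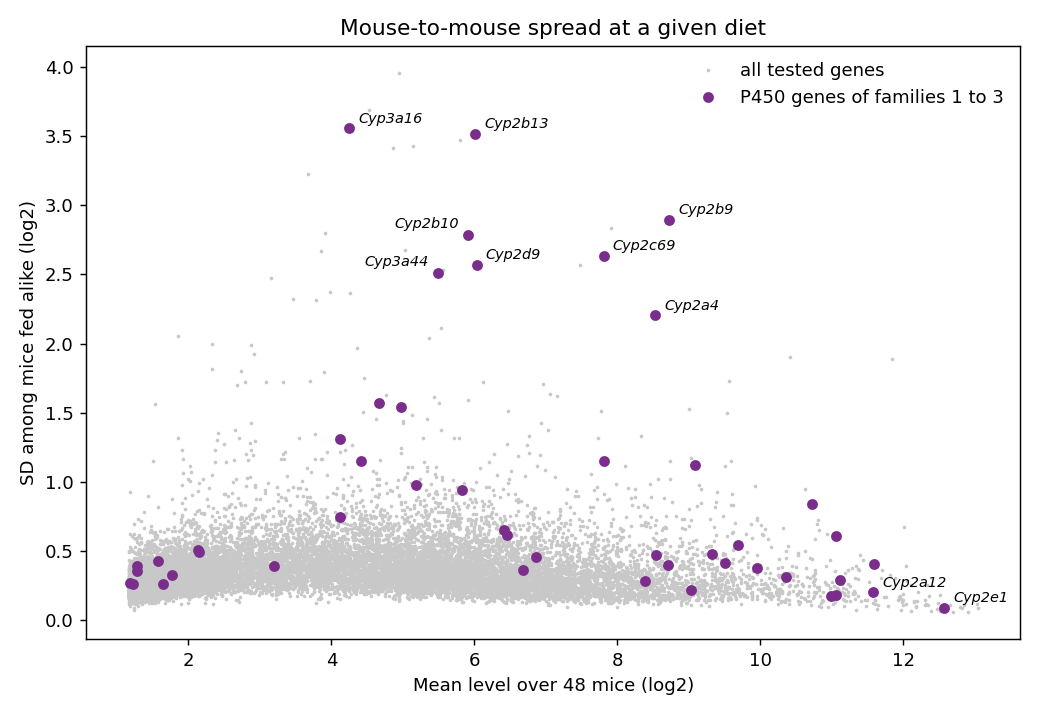
SD among mice fed alike (log2, y axis) against the mean level over 48 mice (log2, x axis) for all 16926 tested genes in grey and the 48 P450 genes in purple. Cyp3a16 (3.55) and Cyp2b13 (3.51) are near the top, and Cyp2e1 (0.093) is at the bottom right. A mouse alone on its combination adds nothing to this SD.

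In the members of widest spread the diet terms accounted for little of the variance over all 48 mice. The sex-linked genes went with much of it. Protein, exchange and energy explained 1.41% of the variance of Cyp3a16, 4.31% of Cyp2b13, 3.13% of Cyp2c69 and 8.46% of Cyp2d9. With the Y-linked minus Xist value added these became 68.1%, 71.2%, 82.0% and 78.8%. For Cyp3a44 the share went from 2.13% to 63.1%, for Cyp2a4 from 5.11% to 58.8%, for Cyp2b9 from 4.24% to 48.2%. For Cyp2b10 it went from 2.49% to 35.2%, and its SD among Y-high mice fed alike was 2.80. The share of variance rose by over 20 points in 21 of 48 members, against 3.66% of all tested genes. For Cyp2j6 it went from 37.7% to 44.3%, and for Cyp1b1, a dioxin-inducible enzyme, from 9.57% to 9.59%.

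By median, 13 of 48 members were more than 1 log2 unit higher in Xist-high arrays (0.544% of all tested genes) and 3 more than 1 lower (0.354%). The medians of Cyp2b13 were 8.85 in Xist-high and 1.91 in Y-high arrays, those of Cyp3a16 7.81 and 1.33, of Cyp2c69 10.35 and 5.44, of Cyp3a44 7.65 and 2.92, of Cyp2a4 10.43 and 5.76, and of Cyp2b9 10.81 and 6.69. The opposite order held for Cyp2d9, a testosterone 16-alpha hydroxylase (3.999 and 8.65), Cyp2u1, a fatty acid hydroxylase (3.90 and 6.39), and Cyp2c54 (8.63 and 10.04). For no member were the ranges of the sets apart (0 of 48, against 0.0354% of tested genes).

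The size of this difference varied within subfamilies. Within Cyp2a, Cyp2a4, a steroid 15-alpha hydroxylase, ran from 9.61 to 10.99 in Xist-high arrays and from 2.06 to 10.28 in Y-high ones. Its near copy Cyp2a5, the coumarin 7-hydroxylase, ran from 3.28 to 5.31 and from 1.56 to 5.38, with medians of 4.52 and 3.51. For Cyp2a22 the medians were 6.09 and 3.12. Levels of different probe sets are not compared here. Cyp2a12 ran from 11.43 to 11.90 and from 10.78 to 11.76. Within Cyp2b, the CAR target Cyp2b10 spread widely in both sets, from 5.03 to 8.97 and from 0.75 to 8.26, and Cyp2b23 stayed near the filter (mean 1.18). Within Cyp3a, Cyp3a16 was at 0.81 to 1.70 in all 24 Y-high arrays and at 1.11 to 10.35 in the Xist-high ones. The 4 lowest Xist-high values of Cyp3a16 were 1.11 (medium energy 42/29/29), 1.63 (medium energy 33/20/47), 1.78 (low energy 42/29/29) and 2.84 (high energy 60/20/20), from 4 different diets. Cyp3a11 and Cyp3a13 had nearly the same medians in both sets.

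Several of the 13 members over 1 log2 unit higher in Xist-high arrays were also high in Y-high arrays at 5% protein. Others were not, Cyp3a16 among them, as given below. Cyp2b9 was at 9.90 to 10.75 (median 10.14) in the 6 Y-high mice at 5%, and at 0.86 to 9.27 (median 4.90) in the 14 at 14% to 42%, which do not overlap. In the 4 at 60% it was at 5.18, 9.04, 9.15 and 9.43. The 4 Xist-high mice at 5% were at 10.67, 10.68, 10.81 and 10.87, within the 9.92 to 11.12 of the 20 others. The Y-high mice at 5% thus reached the Xist-high range, and 3 of 4 at 60% came within 1 log2 unit of its lower end.

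Cyp2b13 was at 4.50, 5.54, 6.57, 7.20, 7.40 and 10.10 in the Y-high mice at 5%, and at 0.96 to 2.41 in the 14 at 14% to 42%. At 60% it was at 1.34, 2.38, 2.85 and 6.26, so here the values at 60% were mostly low. In Xist-high mice it was at 8.58, 8.86, 8.98 and 9.95 at 5% and at 6.06 to 9.91 above. Cyp2a4 was at 8.52 to 10.28 in the 6 Y-high mice at 5% and at 2.06 to 9.90 in the 18 others, with a single mouse of these 18 (medium energy 33/47/20) above 8.52. Cyp2a22 was at 4.90 to 6.99 against 1.95 to 3.81, and Cyp2c38 at 7.90 to 8.93 against 4.48 to 7.66, neither with overlap.

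A comparison of 5% with higher protein inside each set was chosen after these values were seen. It is a limma model with 1 mean for each set at 5% and above, beside the exchange and energy terms. In Y-high arrays 8 of 48 members passed, against 1.84% of all tested genes, 6 higher (1.31% of all) and 2 lower (0.526%). Higher were Cyp2b9 by 5.22 ± 0.81 (SE, adjusted p = 6.56e-05), Cyp2b13 by 5.16 ± 0.56 (adjusted p = 4.87e-08), Cyp2a4 by 3.73 ± 0.56 (13.3-fold, adjusted p = 3.26e-05), Cyp2a22 by 2.36 ± 0.38, Cyp2c38 by 1.94 ± 0.35 and Cyp3a59 by 1.15 ± 0.32 (adjusted p = 0.0437). The Cyp2b13 values at 14% to 42% protein lay around the array medians (1.57 to 1.86), and the lowest of Cyp2b9 lay below them, so no fold is given for either gene. Lower were Cyp2c70 (-0.72 ± 0.17, adjusted p = 0.0154) and Cyp2f2 (-1.04 ± 0.28, adjusted p = 0.0425). The rest of the 13 members over 1 log2 unit higher in Xist-high arrays did not pass. These were Cyp3a44 (1.86), Cyp2c69 (1.47), Cyp2b10 (0.96), Cyp2c39 (0.78), Cyp2c40 (0.56), Cyp2a5 (-0.039) and Cyp3a16 (-0.63).

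The count was 5 without the high energy 5/20/75 Y-high mouse, which had the highest Cyp2b9, Cyp2b13, Cyp2a4 and Cyp2a22 of the 6. Those that passed were then Cyp2b9, Cyp2b13, Cyp2a4, Cyp2a22 and Cyp2c38. With the interquartile range of the array as a term it was 4, Cyp2b9, Cyp2b13, Cyp2a4 and Cyp2a22. Without the medium energy 14/29/57 mouse, itself Y-high, it was 11, with Cyp2c69 (1.45), Cyp2u1 (-1.63) and Cyp2j6 (-0.79) added. Counts over all 16926 tested genes moved too. There 311 genes passed in the fit to all mice, 83 with the range term and 781 without that mouse.

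In Xist-high arrays 1 of 48 members passed, against 1.23% of all tested genes. This was Cyp2f2, at 8.97, 8.99, 9.29 and 10.40 at 5% protein and at 10.62 to 11.69 in the 20 mice above it, without overlap (-1.91 ± 0.33, 3.75-fold lower, adjusted p = 0.000373). For Cyp2b9 the difference was 0.33, for Cyp2b13 0.46 and for Cyp2a4 0.23, none past the threshold. The difference between the sets passed for Cyp2b13 alone, 1 of 48 members against 0.0177% of all tested genes. It was 4.70 ± 0.82 (adjusted p = 0.0124), and it was lost without any 1 of 4 mice at 5% protein, with an adjusted p of up to 0.158. The 4 were the Y-high mouse at 5/20/75 and 3 of the 4 Xist-high mice, those at 5/75/20 and 5/48/48. For Cyp2b9 it was 4.89 ± 1.18 (adjusted p = 0.371) and for Cyp2a4 3.50 ± 0.81 (adjusted p = 0.239), so a larger response in Y-high than in Xist-high arrays was not established for them.

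**Figure D5:**
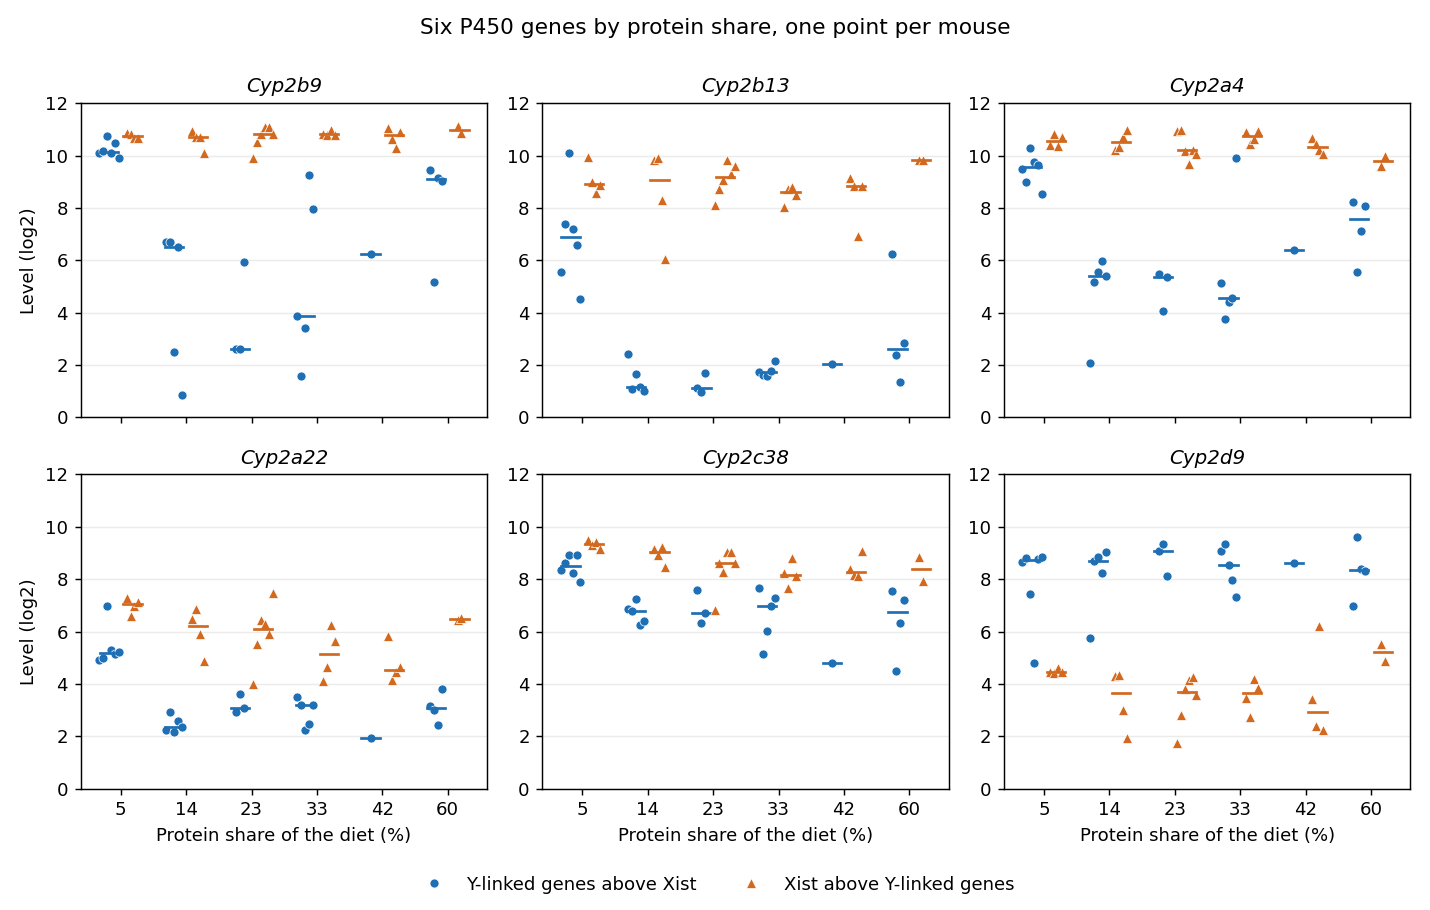
Level (log2) of Cyp2b9, Cyp2b13, Cyp2a4, Cyp2a22, Cyp2c38 and Cyp2d9 against the protein share (%), 1 point for each mouse with the median as a line, circles for Y-high and triangles for Xist-high arrays. The Y-high mice at 5% protein lie above all those at 14% to 42% for the first 5 genes, apart from 1 mouse at 33% for Cyp2a4, while Cyp2d9 stays at 7.45 to 8.83 in 5 of the 6.

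The members higher in Y-high arrays gave no call at 5% protein in the fit to all mice. In the 6 Y-high mice Cyp2d9 was at 4.80, 7.45, 8.67, 8.76, 8.81 and 8.83, beside 5.76 to 9.62 in the 18 others, and neither Cyp2d9, Cyp2c54 nor Cyp2u1 passed. The mouse at 4.80 was on 5/48/48. Sex-biased liver genes outside the P450 families gave, in the same Y-high comparison, 4 of 9 female-biased genes higher (Hao2 2.98, Acot3 1.98, Fmo2 1.49, Abcd2 1.43) and 3 of 10 male-biased genes lower (Susd4 -1.85, Hsd3b5 -3.71, Nudt7 -1.48). Of 11 growth hormone and sex-pattern regulators 1 passed, Trim24 (0.87, adjusted p = 0.0034). Of 15 other AhR, CAR and PXR targets Abcb1a (1.66) and Gadd45b (1.71) were higher. In Xist-high arrays 2 of 9 female-biased genes were lower, A1bg (-4.65) and Sult2a1 (-4.03), and 0 of 10 male-biased genes passed in limma (2 at an unadjusted p under 0.05). Portal genes gave 1 of 8 lower (Hal, -0.74) in Y-high arrays and 2 of 8 lower (Hal, -1.59; Pigr, -1.19) in Xist-high ones. Of the 8 stellate cell markers 1 was higher in Y-high arrays (Reln, 0.62), and 7 had an unadjusted p under 0.05, with a median difference of 0.71. Their mean level ran from 5.70 to 7.26 in the 6 Y-high mice at 5% and from 4.995 to 6.49 in the 18 others. Of the endothelial markers 0 of 7 passed in limma and 5 had an unadjusted p under 0.05, with mean levels of 6.39 to 7.22 and 5.69 to 7.50. For lymphocyte markers these counts were 0 and 3 of 7, and for macrophage markers 0 and 0 of 7. In Xist-high arrays 0 of 8 stellate and 0 of 7 endothelial markers passed in limma, and 2 and 1 had an unadjusted p under 0.05. Over all 16926 tested genes an unadjusted p under 0.05 was found for 3863 in Y-high and 3294 in Xist-high arrays. The part of these markers in the P450 levels was not tested.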

How the data were processed

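RNA of 48 livers was labelled with biotin and hybridized to Affymetrix arrays, per the labels' protocols. The table deposited by the authors holds 41345 probe sets with values from -0.51 to 13.42, read here as log2 expression. No source used here gives the authors' background correction, normalization or programs, and scanner files were not used. The number of arrays, not a count of molecules, sets the precision. A gene is its single-symbol probe set with the highest mean. All 57 members matched RefSeq of GRCm38.p6, and 3 P450 probe sets with several symbols were left out.

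Models over all mice and tested genes used lmFit and a trended eBayes of limma 3.58.1 (R 4.3.3), two-sided, with Benjamini-Hochberg adjustment and a threshold of 0.05. Replicates are mice, numbered in accession order. Members and lists were chosen with earlier results of these data known. Named members passed a test, led their subfamily by mean, or had 1 of the 8 largest SDs among mice fed alike; others, among them those of the 5% protein comparisons, were named after their values were seen. In simulated data with independent normal noise 44% of protein slopes of 0.1 and 94% of those of 0.2 were recovered, with 6.1% of calls false. The slopes were placed in genes drawn from all tested ones. The median SD among mice fed alike was 0.31 in those and 0.49 in members, and array width was not simulated. These shares therefore do not give the recovery for members.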

Additional observations from a re-analysis of the deposited data

Results flagged for a closer look

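The response of Cyp2b13 to 5% protein differed between Y-high and Xist-high arrays by a test of the difference itself (4.70 on the log2 scale). That comparison was chosen after the values were seen, and the call was lost without any 1 of 4 mice. For Cyp2b9 the difference was 4.89 and did not pass.

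In the 3 diet groups of 4 mice, 8 of 87 member-by-group sets had a mouse whose gap to the nearest other passed Dixon's 95% limit. Chance gives about 1 in 20 such sets, but members that share an array are not independent and some were named for their wide spread among mice fed alike, so the count is not read against that share. On high energy 5/75/20 the only Xist-high mouse of the 4 had the highest Cyp3a16 (9.65 against 1.18 to 1.63) and Cyp2a22 (6.59 against 4.90 to 5.13) and the lowest Cyp2d9 (4.43 against 8.67 to 8.81) and Cyp2j5 (10.77 against 11.18 to 11.24). On high energy 5/48/48 a Y-high mouse had the highest Cyp2d9 (8.83 against 4.48 to 4.80, one of these from the other Y-high mouse). In that group Cyp2c29 was highest in 1 mouse (12.00 against 11.03 to 11.16) and Cyp3a11 lowest in 1 (9.85 against 10.15 to 10.21). On high energy 14/29/57 Cyp1b1 was lowest in 1 mouse (1.82 against 2.42 to 2.55).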

How the results depend on the processing

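The count of 4 members for the protein share was 0 with the interquartile range of the array as a term, 0 with that and the Y-linked minus Xist value, and 1 with protein exchanged for carbohydrate only (Cyp2j6); leaving out each mouse gave 3 to 5. The 10 members that differed among diet combinations became 1 without the medium energy 14/29/57 mouse and 2 when the Y-linked minus Xist value was added to that fit, with a range of 1 to 12 over single mice left out. For the comparisons of 5% protein chosen after seeing the data, the 8 members in Y-high arrays became 4 with the interquartile range term, and single mice gave 5 to 11. Over all tested genes the 311 calls there became 83 with that term and 781 without the medium energy 14/29/57 mouse. In Xist-high arrays single mice left out gave 1 to 1 members. For the difference between the sets they gave 0 to 2, the 2 being Cyp2b13 and Cyp2a4. Carbohydrate for fat, high against medium energy, and low against high energy at 60/20/20 gave 0 members under every alternative run. Other settings (no filter, a stricter filter, mean of probe sets, quantile normalization, median centring, mouse number, diet as a random block) kept each count within 1.5 times, and no member that passed a test changed direction in that test, nor did Cyp2c38 for the protein share. Slopes near 0 did, such as those of Cyp2a12 (-0.011 to 0.019) and Cyp2d26 (-0.018 to 0.020) with single mice left out. No paired analysis was possible because replicate numbers were given in accession order and pair no mice. The deposited normalization is not stated, single mice fill 4 of the combinations, and near-identical genes may share probe signal.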
